A study of Mus musculus with 15 samples.

Results

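The transcripts of 9 MHC class II genes, H2-Aa, H2-Ab1, H2-Eb1, H2-DMa, H2-DMb1, H2-DMb2, H2-Oa, H2-Ob and Ciita, were followed in 15 lung tumor nodules that had formed from D2.A1 or D2.OR breast cancer cells. The genes were chosen by symbol, with earlier results of these data known. All 9 were found among the 22180 genes that have a transcript cluster of their own on the Affymetrix Mouse Gene 2.0 ST array, with 1 such cluster each. In RefSeq, Ciita lies on chromosome 16 and the others on chromosome 17, in the mouse MHC. D2.A1 and D2.OR are mouse mammary cancer lines derived from hyperplastic alveolar nodules of BALB/c mice. D2.A1 cells form lung metastases, whereas D2.OR cells can remain dormant in the lung. The cells were given through the tail vein to female BALB/c mice, which the study's methods for this injection describe as a few weeks old, and no group is labelled with a genetic change or a drug. Primed (3D) cells had spent 3 to 5 days on Cultrex, a basement membrane extract, before the injection, whereas unprimed (2D) cells came from tissue culture plastic. The groups were D2.A1 2D spindle (3 nodules), D2.A1 2D epithelial (3 nodules), D2.A1 3D spindle (2 nodules), D2.A1 3D epithelial (2 nodules), D2.OR 2D (2 nodules, numbered 2 and 3) and D2.OR 3D (3 nodules). In D2.A1 lungs the spindle nodules were pleural and the epithelial nodules lay within the parenchyma. All D2.OR nodules are labelled spindle, so line and morphology are crossed only in part. The nodules were taken by laser microdissection from fixed sections, chosen by their morphology, and the hosts kept their own immune cells. Because the samples are bulk RNA, fewer cells of a type and less RNA per cell cannot be told apart. The study names 3 mice per group, and no label ties a nodule to a mouse. With 6 nodules from unprimed and 4 from primed D2.A1 cells, some nodules therefore share a mouse, and p-values between lines or cultures, which treat nodules as independent, are too small. Spindle and epithelial nodules may come from the same mice, so the p-values between them may err either way.

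MHC class II molecules are pairs of an alpha and a beta chain that carry peptides from the endosome to the cell surface, where CD4+ T cells read them. B cells, dendritic cells and macrophages make them without a stimulus or with little, and many other cells, some tumor cells among them, make them under interferon gamma. In the mouse, H2-Aa and H2-Ab1 encode the I-A molecule, and H2-Eb1 encodes the beta chain of I-E. H2-DMa, H2-DMb1 and H2-DMb2 encode the H2-DM molecule, which loads the peptide, and H2-Oa and H2-Ob encode H2-DO, which inhibits H2-DM and is known mainly from B cells. Ciita encodes the transactivator without which the genes of the I-A and I-E chains are hardly transcribed.

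The deposited values are log2 values from Robust Multi-array Average (RMA), with array medians between 1.81 and 1.91, so a value near 1.9 lies at the level of the middle cluster of an array. Of the D2.OR nodules, 3 stood apart. Kcnma1, Rhox5 and Lxn, which earlier results of these data had singled out as high in the tumor nodules and which are called tumor line genes here, had a mean between 7.50 and 8.43 in the 10 D2.A1 nodules. The same mean took values of 6.86, 3.76 and 7.33 among D2.OR 3D nodules and of 2.76 and 2.60 among D2.OR 2D nodules, so that both D2.OR 2D nodules and D2.OR 3D nodule 2 were low. The difference between the lines is given with and without these 3 nodules. Without them only D2.OR 3D nodules 1 and 3 are left of D2.OR, set against all 4 D2.A1 groups. That fit compares unprimed and primed D2.A1 nodules with primed D2.OR nodules only, so line and priming are not balanced in it. Comparisons with D2.OR 2D cannot be made without them, since both nodules of that group are among the 3. The 15 arrays correlated with each other between 0.855 and 0.969.

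Class II promoters are known for a shared module, in which the X and Y boxes bind the complex that recruits Ciita. RefSeq promoters (GRCm38.p6, from 250 bases before to 50 after a gene start) were matched by symbol for 7 of the 9 genes. H2-Ab1 and Ciita were not matched. The letters TGATTGG (Y box), ATGATGC (X2 box) and TGACGTCA (the CRE form of X2) were chosen after the promoters had been read. In the promoters of the 7 genes they were searched on the strand of the gene only. For the shares over all promoters they were searched on both strands. The 87 bases around the Y letters are shown for the 6 genes that hold them, because genes of the chains, of H2-DM and of H2-DO share these letters there. Capitals mark the Y letters and, before them, the X2 or CRE letters, which do not overlap. Each is written from 5′ to 3′ on the strand of its gene.
H2-Aa: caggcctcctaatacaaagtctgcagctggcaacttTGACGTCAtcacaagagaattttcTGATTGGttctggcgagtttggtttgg
H2-Eb1: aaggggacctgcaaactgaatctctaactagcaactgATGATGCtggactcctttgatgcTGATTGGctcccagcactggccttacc
H2-DMb1: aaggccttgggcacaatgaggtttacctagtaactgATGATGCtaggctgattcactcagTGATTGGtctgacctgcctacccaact
H2-DMb2: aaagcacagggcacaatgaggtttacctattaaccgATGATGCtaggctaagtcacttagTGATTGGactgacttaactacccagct
H2-Oa: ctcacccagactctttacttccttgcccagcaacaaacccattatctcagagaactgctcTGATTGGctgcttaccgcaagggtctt
H2-Ob: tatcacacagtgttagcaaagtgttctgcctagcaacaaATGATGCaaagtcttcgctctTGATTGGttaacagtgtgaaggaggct
These stretches lie at chr17:34287847-34287933 (minus strand) for H2-Aa and chr17:34305746-34305832 (plus strand) for H2-Eb1. They lie at chr17:34153068-34153154 (plus strand) for H2-DMb1, chr17:34145097-34145183 (plus strand) for H2-DMb2, chr17:34092274-34092360 (plus strand) for H2-Oa and chr17:34238786-34238872 (plus strand) for H2-Ob. The X2 or CRE letters end 16 bases before the Y letters in H2-Aa and in H2-Eb1, 17 bases before them in H2-DMb1 and in H2-DMb2 and 14 bases before them in H2-Ob. On the strand of the gene, H2-Oa held the Y letters alone, and the 2 promoters listed for H2-DMa held none of the Y letters. The stretches of H2-DMb1 and H2-DMb2, which encode the alternative beta chains of H2-DM, were identical at 73 of 87 positions (83.9%). Of all 32851 RefSeq promoters, 7.82% held the Y letters, 2.46% the X2 letters, 1.79% the CRE letters and 0.174% both Y and X2. X2 letters within 30 bases before Y letters were found in 0.0244%, or 8 promoters, of which 4 belong to the genes described here (H2-Eb1, H2-DMb1, H2-DMb2 and H2-Ob). A match of letters is a description of these windows only.

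**Figure D1:**
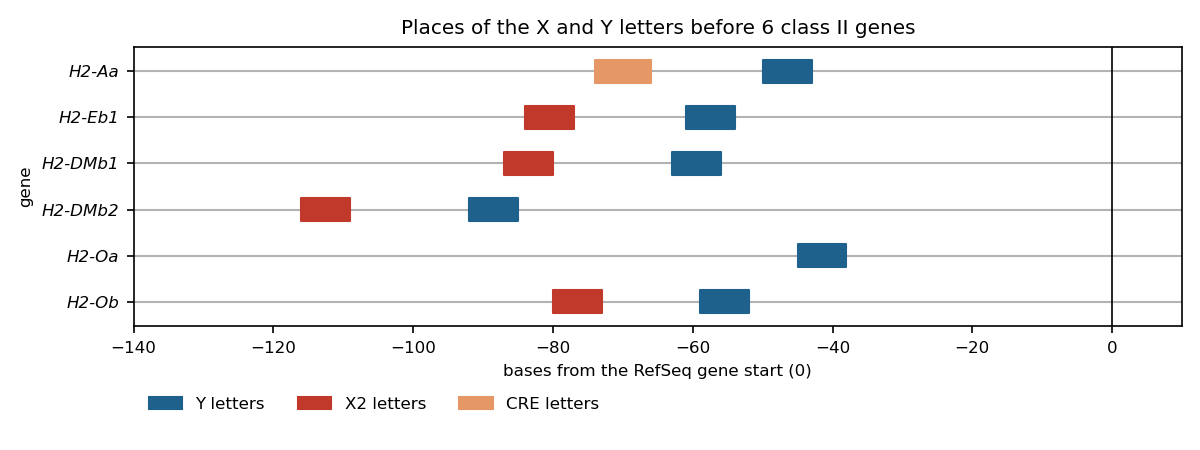
Places of the Y letters (blue), the X2 letters (red) and the CRE letters (orange) in 6 promoters, with the distance in bases from the RefSeq gene start on the horizontal axis and 1 gene per line. The Y letters begin between 45 and 92 bases before the start, and H2-Oa has no X2 or CRE letters on the strand of the gene.

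MHC class II transcripts were lower in D2.A1 than in D2.OR nodules. Of the 9 genes, 8 fell in D2.A1 nodules in limma's test of the 4 D2.A1 group means against the 2 D2.OR group means (adjusted p under 0.05 over 22180 genes), and none rose. H2-DMb2 was 4.08-fold lower, H2-Ab1 2.87-fold, H2-Eb1 2.48-fold and H2-Aa 2.27-fold lower, an order that changed without the 3 nodules low in tumor line genes (-2.22 for H2-Ab1, -1.84 for H2-Eb1, -1.57 for H2-DMb2 and -1.34 for H2-Aa on the log2 scale). H2-Ob was the 1 gene that missed the threshold. Over all genes 3.67% were lower in D2.A1 nodules by the same rule, and the median difference of the 9 genes was -0.99 on the log2 scale, against 0.02 over all genes. For all 9 genes both D2.OR group means lay above all 4 D2.A1 group means, an order found for 12.8% of all genes. Every D2.A1 nodule lay below every D2.OR nodule for 4 of the 9 genes (H2-Eb1, H2-DMa, H2-DMb2 and Ciita), a separation found for 1.17% of all genes. Without the 3 D2.OR nodules that were low in Kcnma1, Rhox5 and Lxn, 7 of the 9 genes passed, and H2-DMb1 and H2-Ob did not. There D2.A1 nodules, primed and unprimed, were set against primed D2.OR nodules 1 and 3 only. In that fit 4.81% of all genes were lower in D2.A1 nodules.

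**Figure D2:**
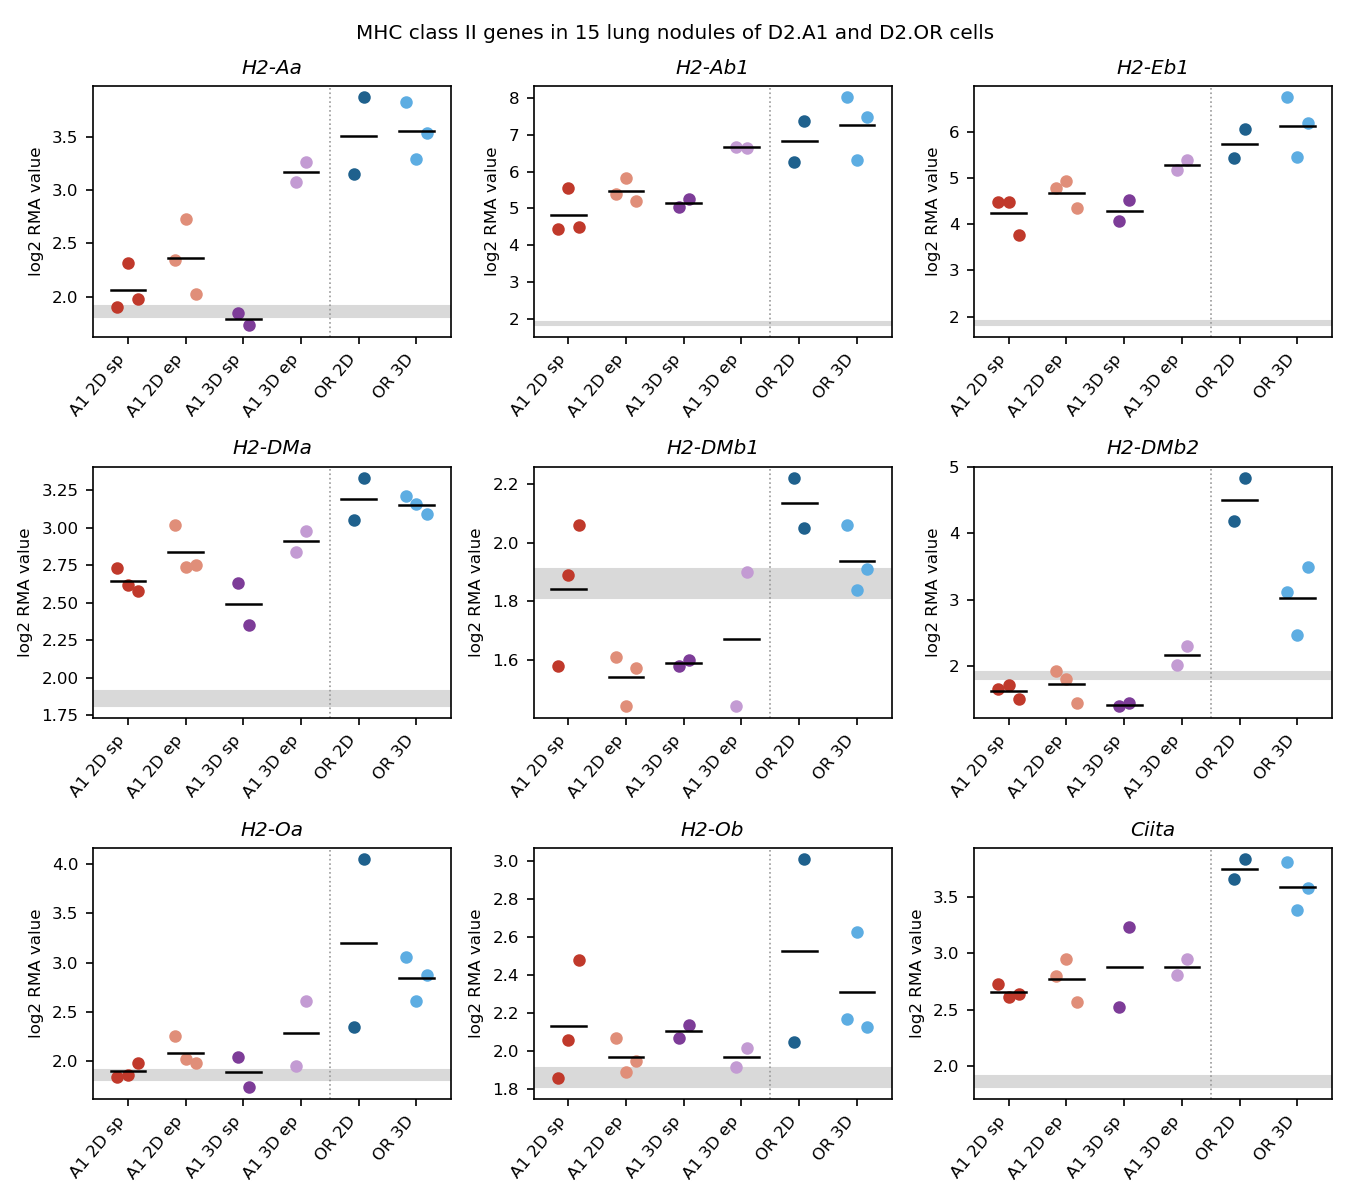
Log2 RMA values of the 9 genes (vertical axes, each gene on its own scale) in the 4 D2.A1 groups and the 2 D2.OR groups (sp, spindle; ep, epithelial), with 1 point per nodule, group means as black lines and the range of the array medians as a grey band. The D2.OR points lie above the D2.A1 points for H2-Eb1, H2-DMa, H2-DMb2 and Ciita, and the D2.A1 3D epithelial nodules are the highest of the D2.A1 nodules for H2-Aa, H2-Ab1, H2-Eb1 and H2-DMb2.

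H2-Aa, the I-A alpha chain, had log2 values of 1.90, 2.32 and 1.98 in D2.A1 2D spindle nodules and 2.34, 2.73 and 2.03 in D2.A1 2D epithelial nodules. It had 1.85 and 1.73 in D2.A1 3D spindle nodules and 3.08 and 3.26 in D2.A1 3D epithelial nodules, against 3.15 and 3.87 in unprimed and 3.83, 3.29 and 3.54 in primed D2.OR nodules. In spindle nodules of D2.A1 H2-Aa was thus near the array median, and of the D2.A1 nodules only D2.A1 3D epithelial nodule 2 overlapped the D2.OR range. The difference between the lines was -1.18 (SE 0.15, limma adjusted p = 7.5e-04) and -1.34 without the 3 D2.OR nodules low in tumor line genes (adjusted p = 7.2e-04).

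H2-Ab1, the I-A beta chain, had 4.43, 5.55 and 4.50 in D2.A1 2D spindle nodules and 5.39, 5.83 and 5.21 in D2.A1 2D epithelial nodules. The values were 5.03 and 5.26 in D2.A1 3D spindle nodules and 6.68 and 6.65 in D2.A1 3D epithelial nodules, against 6.27 and 7.37 in unprimed and 8.02, 6.32 and 7.48 in primed D2.OR nodules. Both D2.A1 3D epithelial nodules lay inside the D2.OR range, above D2.OR 2D nodule 2 and D2.OR 3D nodule 2, whereas the other 8 D2.A1 nodules lay below it. The line difference was -1.52 (SE 0.29, limma adjusted p = 0.0086), and it was -2.22 (adjusted p = 4.9e-04) without the 3 D2.OR nodules low in tumor line genes.

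H2-Eb1, the I-E beta chain, had 4.48, 4.48 and 3.77 in D2.A1 2D spindle nodules and 4.78, 4.93 and 4.34 in D2.A1 2D epithelial nodules. It had 4.07 and 4.52 in D2.A1 3D spindle nodules and 5.17 and 5.38 in D2.A1 3D epithelial nodules, against 5.42 and 6.06 in unprimed and 6.74, 5.46 and 6.19 in primed D2.OR nodules. The lines did not overlap, and the gap between the highest D2.A1 nodule (5.38) and the lowest D2.OR nodule (5.42) was narrow. The difference was -1.31 (SE 0.21, limma adjusted p = 0.0037), and -1.84 (adjusted p = 5.7e-04) without the 3 D2.OR nodules. H2-Ea, the I-E alpha chain and partner of H2-Eb1, is not among the 9 genes and is annotated as a pseudogene in the C57BL/6 reference, whereas BALB/c mice express I-E. It ranged from 2.54 to 7.31 in D2.A1 nodules and from 6.84 to 8.81 in D2.OR nodules, with a difference of -2.22 (SE 0.47, limma adjusted p = 0.017). H2-Eb2, a further class II chain gene outside the 9, stayed near the array median and did not pass. Its values ran from 1.47 to 1.99 in D2.A1 nodules and from 1.44 to 2.07 in D2.OR nodules.

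The peptide-loading molecule H2-DM has 1 alpha and 2 beta chain genes, and these differed among themselves. H2-DMb1 and H2-DMb2 are close copies, so an array probe for 1 of them can pick up RNA of the other, and the split of signal between them is uncertain. The log2 values of H2-DMb2 were 1.65, 1.71 and 1.51 in D2.A1 2D spindle nodules, 1.92, 1.81 and 1.45 in D2.A1 2D epithelial nodules, 1.39 and 1.44 in D2.A1 3D spindle nodules and 2.02 and 2.30 in D2.A1 3D epithelial nodules. In D2.OR nodules they were 4.19 and 4.83 when unprimed and 3.11, 2.47 and 3.49 when primed. All D2.A1 values stayed within 1 log2 unit of the array median, and no D2.OR value reached as low as a D2.A1 value. The difference was -2.03 (SE 0.16, limma adjusted p = 2.7e-05), and -1.57 (adjusted p = 8.4e-05) without the 3 D2.OR nodules low in tumor line genes.

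H2-DMb1, the other beta chain gene, had 1.58, 1.89 and 2.06 in D2.A1 2D spindle nodules, 1.61, 1.44 and 1.57 in D2.A1 2D epithelial nodules, 1.58 and 1.60 in D2.A1 3D spindle nodules and 1.44 and 1.90 in D2.A1 3D epithelial nodules. In D2.OR nodules it had 2.22 and 2.05 when unprimed and 2.06, 1.84 and 1.91 when primed. Every one of the 15 values lay within 1 log2 unit of its array median, and the lines overlapped. Its difference of -0.38 (SE 0.10) passed narrowly (limma adjusted p = 0.045). The call held in 3 of 15 fits with a nodule left out, those without D2.A1 2D spindle nodule 3, D2.A1 3D epithelial nodule 2 or D2.OR 3D nodule 2, and was lost without the 3 D2.OR nodules (-0.32, adjusted p = 0.28).

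H2-DMa, the alpha chain, varied little within a line. It ranged from 2.35 to 3.02 in D2.A1 nodules, with 2.84 and 2.98 in the 3D epithelial ones. In D2.OR nodules it had 3.05 and 3.33 when unprimed and 3.21, 3.16 and 3.09 when primed, all above D2.A1 nodules. The difference of -0.45 (SE 0.08, limma adjusted p = 0.0064) amounted to 1.37-fold and remained at -0.43 (adjusted p = 0.047) without the 3 D2.OR nodules.

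The H2-DO genes gave unlike results. H2-Oa, the alpha chain, had 1.84, 1.86 and 1.98 in D2.A1 2D spindle nodules, 2.25, 2.02 and 1.98 in D2.A1 2D epithelial nodules, 2.04 and 1.73 in D2.A1 3D spindle nodules and 1.95 and 2.61 in D2.A1 3D epithelial nodules. In D2.OR nodules it had 2.35 and 4.05 when unprimed and 3.06, 2.61 and 2.87 when primed. D2.A1 3D epithelial nodule 2 reached the D2.OR range, and D2.OR 2D nodule 3 was the highest of all. The difference of -0.99 (SE 0.22, limma adjusted p = 0.024) shrank to -0.56 (adjusted p = 0.037) without D2.OR 2D nodule 3 and missed the threshold without D2.A1 3D spindle nodule 2, D2.A1 3D epithelial nodule 1, D2.OR 3D nodule 1 or D2.OR 3D nodule 3 (adjusted p at most 0.064). It was -0.93 (adjusted p = 0.0046) without the 3 D2.OR nodules low in tumor line genes.

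H2-Ob, the beta chain of H2-DO, ranged from 1.86 to 2.48 in D2.A1 nodules. In D2.OR nodules it had 2.05 and 3.01 when unprimed and 2.17, 2.63 and 2.13 when primed, so that the lines overlapped and D2.OR 2D nodule 3 was again the highest. The difference was -0.38 (SE 0.15), which did not pass (limma adjusted p = 0.22). It rested on D2.OR 2D nodule 3, being -0.62 without nodule 2 and -0.14 without nodule 3, fits that leave 1 nodule in that group. Without the 3 D2.OR nodules low in tumor line genes it was -0.10 (adjusted p = 0.79).

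Ciita, the transactivator, had 2.73, 2.61 and 2.64 in D2.A1 2D spindle nodules, 2.80, 2.95 and 2.57 in D2.A1 2D epithelial nodules, 2.52 and 3.23 in D2.A1 3D spindle nodules and 2.81 and 2.95 in D2.A1 3D epithelial nodules. In D2.OR nodules it had 3.66 and 3.83 when unprimed and 3.81, 3.38 and 3.58 when primed. All D2.OR nodules lay above all D2.A1 nodules, and D2.A1 3D spindle nodule 2 was the closest of the D2.A1 nodules. The difference was -0.87 (SE 0.12, limma adjusted p = 0.0012), or 1.83-fold lower in D2.A1 nodules, and -0.89 (adjusted p = 0.0070) without the 3 D2.OR nodules. H2-Aa, H2-Ab1, H2-Eb1, H2-DMa, H2-DMb2 and Ciita each kept their call in 15 of 15 fits with a nodule left out.

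The same genes were compared within each culture, to hold priming constant. In unprimed nodules, 5 of the 9 genes fell in D2.A1 2D, compared with D2.OR 2D (H2-DMb2 with a difference of -2.83, H2-Ab1 with -1.67, H2-Aa with -1.30, H2-Eb1 with -1.27 and Ciita with -1.03), where 3.20% of all genes were lower. The median of the 9 was -1.21, against 0.03 over all genes. The limma adjusted p-values were 7.2e-05 for H2-DMb2, 0.0053 for H2-Aa, 0.0054 for Ciita, 0.039 for H2-Eb1 and 0.045 for H2-Ab1. H2-DMa (-0.45, adjusted p = 0.055) and H2-Oa (-1.21, adjusted p = 0.061) missed the threshold. Both rested more on D2.OR 2D nodule 3 than on nodule 2. H2-Oa was -2.06 without nodule 2 and -0.36 without nodule 3, and H2-DMa was -0.59 without nodule 2 and -0.31 without nodule 3. Each of these fits leaves 1 nodule in D2.OR 2D, which then has no spread of its own. H2-DMa passed without D2.A1 2D epithelial nodule 1 (-0.50, adjusted p = 0.042). H2-Ob was -0.48 with all nodules, -0.96 without D2.OR 2D nodule 2 and 0.00 without D2.OR 2D nodule 3. H2-DMb2 and Ciita kept their calls whichever nodule was left out. H2-Aa lost its call without D2.OR 2D nodule 3 (-0.94, adjusted p = 0.060), and without it H2-Ab1 differed by -1.12 (adjusted p = 0.42) and H2-Eb1 by -0.96 (adjusted p = 0.34). The calls of H2-Ab1 and H2-Eb1 held in 4 and 3 of the 15 fits, in both cases those without D2.OR 2D nodule 2, D2.OR 3D nodule 1 or D2.OR 3D nodule 2, and for H2-Ab1 also without D2.A1 2D spindle nodule 2.

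In primed nodules, 2 of the 9 genes fell in D2.A1 3D, compared with D2.OR 3D, where 0.252% of all genes were lower. These were H2-DMb2 (-1.24, SE 0.22, limma adjusted p = 0.035) and H2-Aa (-1.07, SE 0.20, adjusted p = 0.044), and the median of the 9 genes was -0.76, against 0 over all genes. H2-Eb1 (-1.34, adjusted p = 0.080), H2-Ab1 (-1.37, adjusted p = 0.20) and Ciita (-0.71, adjusted p = 0.10) had differences of a similar size that missed the threshold. When D2.OR 3D nodule 2 was left out, the nodule low in tumor line genes, 5 of the 9 passed. Among them were H2-Ab1 at -1.84 (adjusted p = 0.017) and H2-DMb2 at -1.51 (adjusted p = 0.0014). The number of all genes that passed also rose in that fit, in a larger proportion than the rise from 2 to 5. The rise was thus not particular to the class II genes. H2-Eb1 stayed at -1.34 without either D2.OR 2D nodule, and Ciita was -0.89 without D2.A1 3D spindle nodule 2, fits that leave 1 nodule in a group. The calls of H2-Aa and H2-DMb2 held in 5 of 15 fits each, with adjusted p up to 0.17 and 0.14 in the others. Both held without D2.A1 2D epithelial nodule 3, either D2.OR 2D nodule or D2.OR 3D nodule 2, and in addition H2-Aa held without D2.A1 2D epithelial nodule 2 and H2-DMb2 without D2.A1 2D spindle nodule 3. With the epithelial D2.A1 nodules alone none of the 9 passed, and H2-Aa differed by -0.38 (adjusted p = 0.79).

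**Figure D3:**
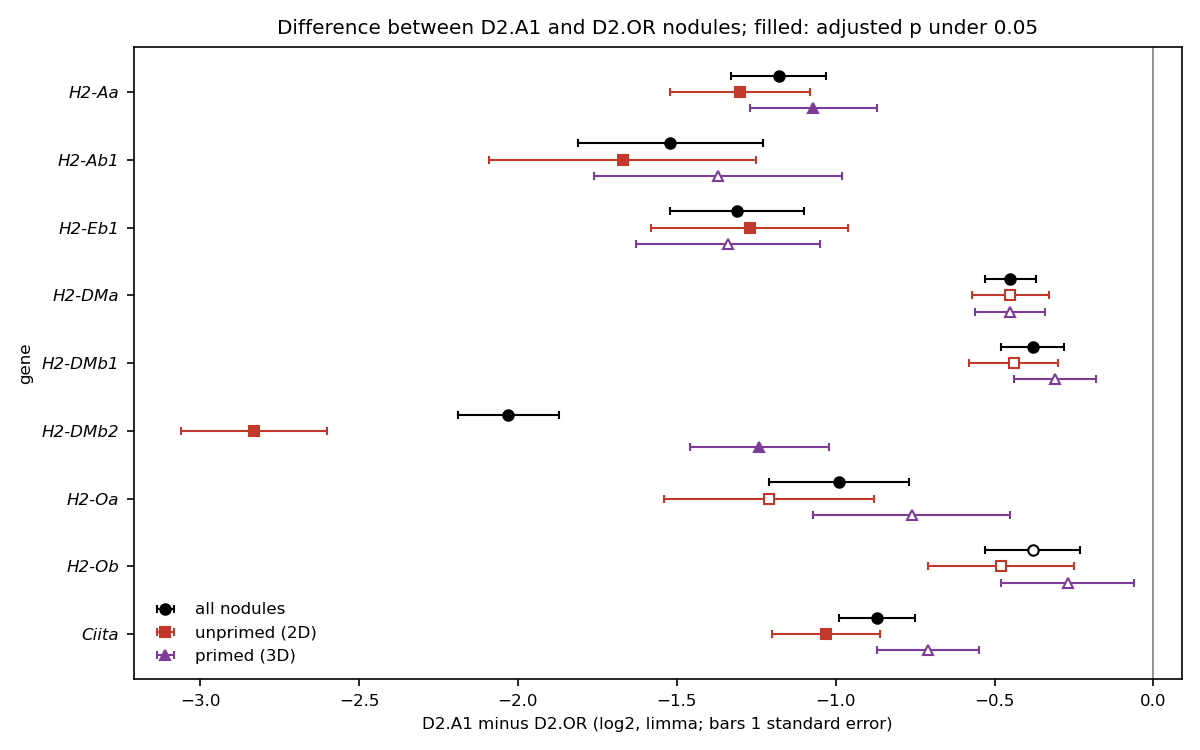
Differences on the log2 scale (horizontal axis, D2.A1 minus D2.OR) for the 9 genes over all nodules (black circles), unprimed nodules (red squares) and primed nodules (purple triangles), with bars of 1 standard error from limma and filled symbols for an adjusted p under 0.05. All 27 differences lie left of 0, and that of H2-DMb2 is -2.83 in unprimed nodules and -1.24 in primed nodules.

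Since D2.OR nodules are all labelled spindle, the spindle nodules of D2.A1 give the comparison matched for morphology. Site in the lung may still differ. The study places D2.A1 spindle nodules on the pleura only and primed D2.OR nodules in both pleura and parenchyma. Against D2.OR 2D, 6 of the 9 genes fell in D2.A1 2D spindle nodules (2.47% of all genes were lower), with H2-DMb2 at -2.88 (limma adjusted p = 2.1e-04), H2-Ab1 at -2.0 (0.039), H2-Eb1 at -1.49 (0.037), H2-Aa at -1.45 (0.0076), Ciita at -1.08 (0.010) and H2-DMa at -0.54 (0.045). Here H2-Aa, H2-DMb2 and Ciita held in 15 of 15 fits with a nodule left out, whereas H2-Ab1 and H2-Eb1 held in 4 each and H2-DMa in 5. The calls of H2-Ab1, H2-Eb1 and H2-DMa were lost without D2.OR 2D nodule 3 and held without D2.OR 2D nodule 2 or D2.OR 3D nodule 2. H2-Oa, not called with all nodules, was -2.16 without D2.OR 2D nodule 2 and -0.46 without D2.OR 2D nodule 3. Each of these fits leaves 1 nodule in D2.OR 2D. Against D2.OR 3D, 2 of the 9 fell in D2.A1 3D spindle nodules (0.171% of all genes were lower), H2-Aa at -1.76 (SE 0.24, limma adjusted p = 0.012) and H2-DMb2 at -1.61 (SE 0.26, adjusted p = 0.026). H2-Eb1, at -1.83 with an adjusted p of 0.053, and H2-DMa, at -0.66 with 0.063, were next, and H2-Ab1 had -2.13 with 0.084. These 3 passed without D2.OR 3D nodule 2 (adjusted p at most 0.04). In that fit 589 of 22180 genes passed in either direction, against 61 with all nodules. H2-Eb1 also passed without D2.A1 2D spindle nodule 3 (adjusted p = 0.037). Both calls of the primed spindle comparison were lost without D2.A1 3D spindle nodule 1 or nodule 2. That of H2-DMb2 was also lost without D2.OR 3D nodule 1 or nodule 3, with adjusted p up to 0.15.

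Priming itself was then examined within each line. In D2.OR nodules 1 of the 9 genes passed: H2-DMb2 was lower in D2.OR 3D (3.11, 2.47 and 3.49) than in D2.OR 2D nodules (4.19 and 4.83), with a difference of -1.49 (SE 0.26, limma adjusted p = 0.043), where 0.203% of all genes were lower. The groups did not overlap. The call held in 3 of 15 fits with a nodule left out (without D2.OR 2D nodule 2, D2.OR 3D nodule 2 or D2.OR 3D nodule 3), and the difference was -1.17 (adjusted p = 0.090) without D2.OR 2D nodule 3. The other 8 genes had differences between -0.35 (H2-Oa) and 0.45 (H2-Ab1) and did not pass. H2-Oa was -1.20 without D2.OR 2D nodule 2 and 0.50 without nodule 3, and H2-Ab1 was -0.10 without nodule 2 and 1.00 without nodule 3. Each of these fits leaves 1 nodule in D2.OR 2D. The nodules also differed in other genes: Cd3d (-1.78), Fcer2a (-2.14) and Ebf1 (-1.72), genes of T and B cells, were lower in D2.OR 3D than in D2.OR 2D nodules, and Sftpc, a surfactant gene of alveolar type II cells, was higher (6.74), as was Kcnma1 of the tumor line genes (5.95). Their part in the H2-DMb2 difference was not tested.

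In D2.A1 nodules no gene of the 9 passed between 3D and 2D in limma (0.00451% of all genes passed in either direction), with 1 of the 9 higher at an unadjusted p under 0.05 (3.00% of all genes were), and the one-way test also gave 0. That gene was H2-Ab1, with a difference of 0.75 (SE 0.33, adjusted p = 0.93). The 3D minus 2D difference of H2-Ab1 was 1.19 among epithelial and 0.32 among spindle nodules, and that of H2-Aa was 0.81 among epithelial and -0.27 among spindle nodules, none of them past the threshold. The effect of priming was also compared between the lines, and none of the 9 genes passed (0.0947% of all genes did). H2-DMb2 had the largest such difference of the 9, at 1.60 (SE 0.32, limma adjusted p = 0.13), and was the only 1 at an unadjusted p under 0.05 (4.54% of all genes were, in that direction). H2-DMb2 passed without D2.OR 3D nodule 2 (1.33, adjusted p = 0.031). In that fit 268 of 22180 genes passed in either direction, against 21 with all nodules. Without D2.OR 2D nodule 2 the difference was 1.92 for H2-DMb2 and 1.30 for H2-Oa. Without D2.OR 2D nodule 3 it was 1.28 for H2-DMb2 and -0.40 for H2-Oa. The last 2 fits leave 1 nodule in D2.OR 2D.

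Morphology was compared within D2.A1. No gene of the 9, and 0.00% of all genes, passed between spindle and epithelial nodules in limma, and the one-way test gave 0 as well. At an unadjusted p under 0.05, 5 of the 9, and 4.36% of all genes, were lower in spindle nodules: H2-Aa (-0.84, SE 0.17, adjusted p = 0.17), H2-Ab1 (-1.09, SE 0.33, adjusted p = 0.40), H2-Eb1 (-0.71), H2-DMa (-0.30) and H2-DMb2 (-0.42). H2-DMb1 (0.11), H2-Ob (0.15) and Ciita (-0.06) had differences near 0. The values separated most in primed nodules, where H2-Aa had 1.85 and 1.73 in spindle nodules and 3.08 and 3.26 in epithelial ones, and H2-Ab1 had 5.03 and 5.26 in spindle nodules and 6.68 and 6.65 in epithelial ones. Among primed nodules alone the differences were -1.38 for H2-Aa (adjusted p = 0.20) and -1.52 for H2-Ab1 (adjusted p = 0.53), and among unprimed nodules alone they were -0.30 and -0.65. The difference of the morphology effect between the cultures passed for none of the 9 (0.00% of all genes). It was -1.08 for H2-Aa (SE 0.34, unadjusted p = 0.0081, adjusted p = 1.0), the only 1 of the 9 at an unadjusted p under 0.05 (2.04% of all genes were, in that direction). Ordered by group means, the D2.A1 3D epithelial group was the highest of the 4 D2.A1 groups for 6 of the 9 genes, and the D2.A1 3D spindle group was the lowest of all 6 groups for 4 of them.

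Other genes of the class II pathway were counted from lists, and by the same rule 1.52% of all genes were higher and 3.67% lower in D2.A1 nodules. Of the transcription complex that binds the X and Y boxes and works with Ciita, 11 of 12 listed genes were measured. Of these, 1 rose and 1 fell in D2.A1 nodules. Rfxap, a subunit of the RFX complex, was higher (0.34, SE 0.08, limma adjusted p = 0.023), and the acetyltransferase gene Kat2b was lower (-0.43, adjusted p = 0.043), whereas Rfx5 (0.02) and Rfxank (-0.06) did not pass. The median of the 11 was -0.23, and without the 3 D2.OR nodules low in tumor line genes 2 fell and none rose. Of 9 measured genes of interferon gamma signaling, 3 fell and none rose: Irf8 (-1.32, adjusted p = 0.037), Jak1 (-1.30, adjusted p = 0.0071) and the receptor chain Ifngr1 (-0.96, adjusted p = 0.0084). Without those 3 nodules 6 of the 9 fell. Irf1, a factor that binds the inducible Ciita promoter, had -0.77 and did not pass. Ifng itself stayed between 1.45 and 1.78 in D2.A1 nodules and between 1.57 and 1.81 in D2.OR nodules, within 1 log2 unit of the array median in every nodule.

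Among 9 enzymes that cut antigen or the invariant chain or turn class II over, 1 rose and 1 fell. Ctsl, a cathepsin that trims the invariant chain in thymic epithelium, was higher in D2.A1 nodules by 1.37 (SE 0.22, limma adjusted p = 0.0034), from 5.43 to 6.57 against 4.20 to 5.43 in D2.OR nodules. Ifi30, the lysosomal thiol reductase, was lower (-1.52, SE 0.30, adjusted p = 0.011), and Ctss, the cathepsin of B cells and dendritic cells, had 0.10 and did not pass. Of 8 costimulatory genes 3 fell, Icosl (-0.83, adjusted p = 0.047), Cd40 (-0.68, adjusted p = 0.030) and Cd83 (-0.52, adjusted p = 0.0083), and none rose. Of 10 measured MHC class I genes none passed in limma, 3 were lower at an unadjusted p under 0.05 (H2-T23, Tap2 and Nlrc5), as were 11.1% of all genes, and their median was -0.41. Without the 3 D2.OR nodules low in tumor line genes, 7 of the 10 class I genes fell, with a median of -0.95, against 4.81% of all genes that fell in that fit. The enzymes then had 2 lower and 1 higher and the costimulatory genes 3 lower. B2m, the light chain of class I, had -0.26, and Nlrc5, the class I counterpart of Ciita, had -0.93 (adjusted p = 0.14). The class I genes were not tested against the class II genes.

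Genes of other cell types also differed between the lines. All 13 measured B cell genes fell in D2.A1 nodules, with Pou2af1 at -2.73 (limma adjusted p = 9.2e-06) and Cd79a at -2.61 (adjusted p = 4.2e-05). Without the 3 D2.OR nodules low in tumor line genes, 9 of the 13 fell. The mean of the 13 ran from 1.90 to 2.11 in D2.A1 nodules, where each gene stayed within 1 log2 unit of the array median, and from 2.79 to 4.81 in D2.OR nodules. Of 8 T cell genes 5 fell, among them Cd4 (-1.27, adjusted p = 0.024) and Cd3g (-2.42, adjusted p = 0.0042), and their mean ran from 1.84 to 2.09 in D2.A1 nodules and from 2.19 to 4.14 in D2.OR nodules. D2.OR 2D nodule 3, the highest nodule for H2-Aa, H2-DMa, H2-DMb2, H2-Oa, H2-Ob and Ciita, was also the highest for the B cell mean (4.81) and the T cell mean (4.14). H2-Ab1 (8.02) and H2-Eb1 (6.74) were highest in D2.OR 3D nodule 1, where the B cell mean was 3.23 and the T cell mean 2.49. Between D2.OR 3D and D2.OR 2D nodules the median difference was -1.03 for the B cell genes, -1.19 for the T cell genes and -0.16 for the class II genes. Without the 3 D2.OR nodules low in tumor line genes, 3 of the 8 T cell genes fell. Of 11 dendritic cell genes 2 fell and 1 rose, with means from 2.39 to 2.61 in D2.A1 nodules and from 2.77 to 3.68 in D2.OR nodules. Ccr7, the receptor that guides dendritic and T cells to lymph nodes, fell (-2.37, adjusted p = 7.5e-04), as did the chemokine gene Ccl22 (-1.44, adjusted p = 0.0087), while Cd209a rose (0.55, adjusted p = 0.013), and the integrin Itgax had -0.25 and did not pass.

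Macrophage genes moved both ways. Of 14 such genes 2 rose and 1 fell in D2.A1 nodules, the median difference was 0.05, and their mean ran from 3.08 to 3.65 in D2.A1 nodules and from 2.88 to 3.96 in D2.OR nodules. Csf1r had -0.60 and did not pass. Of 7 genes of high endothelial venules and follicles 3 fell, among them Glycam1 (-5.87, limma adjusted p = 0.0075) and Cxcl13 (-3.87, adjusted p = 6.5e-05). Glycam1 was between 2.26 and 4.65 in 9 D2.A1 nodules and at 8.70 in D2.A1 3D epithelial nodule 2, which was also the highest D2.A1 nodule for H2-Aa, H2-Eb1, H2-DMb2 and H2-Oa. Fat genes had a mean of 1.77 to 2.09 in D2.A1 nodules and 2.74 to 7.11 in D2.OR nodules, with 7.11 in D2.OR 2D nodule 2. Of the 8 fat genes 6 were lower (Ucp1 at -5.35, adjusted p = 1.4e-04). Heart muscle genes had a mean of 1.94 to 2.16 in D2.A1 nodules and reached 4.96 in D2.OR 3D nodule 2 among D2.OR nodules. The alveolar type II mean ran from 2.61 to 4.05 in D2.A1 nodules. It was 2.49 and 2.43 in D2.OR 2D nodules, below every D2.A1 nodule, and ran from 3.85 to 5.10 in D2.OR 3D nodules. Without the 3 D2.OR nodules low in tumor line genes, 3 of 14 macrophage genes, 2 of 7 venule and follicle genes, 3 of 8 fat genes, 3 of 8 heart muscle genes and 6 of 10 alveolar type II genes fell and none of them rose, and 3 of 11 dendritic cell genes fell and 1 rose. The part of these cell types in the class II differences was not tested.

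**Figure D4:**
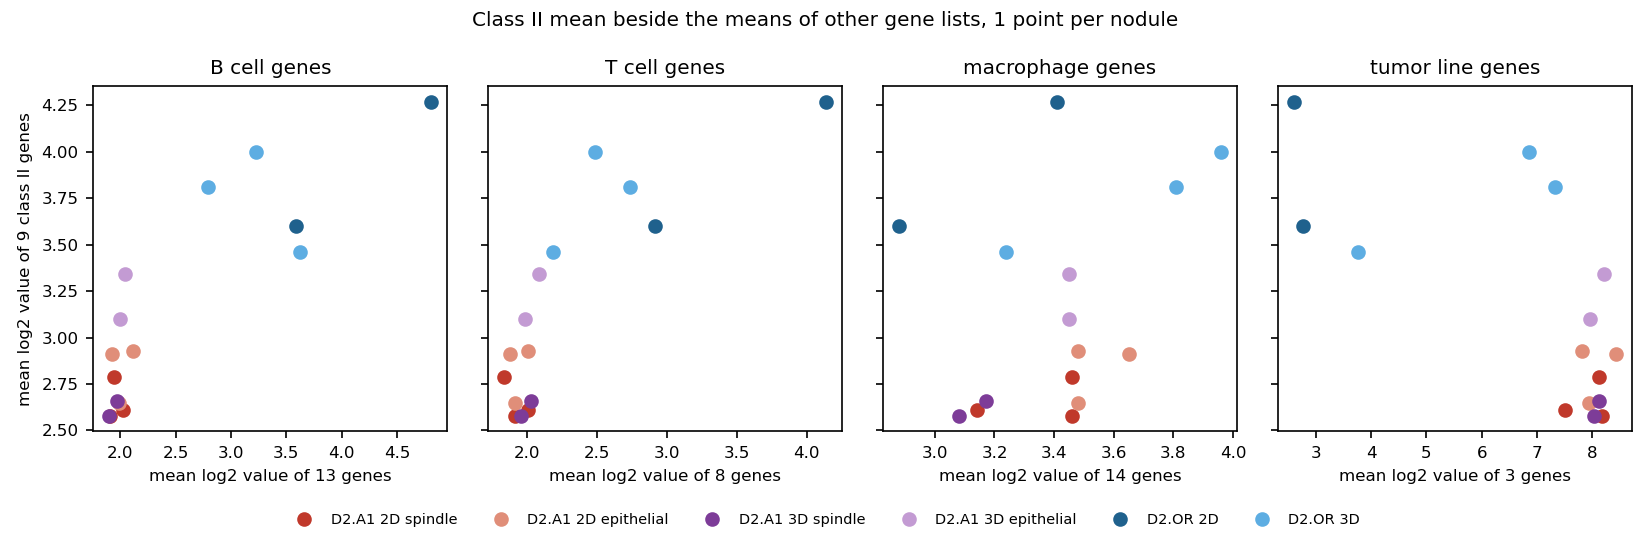
Mean log2 value of the 9 class II genes (vertical axis) beside the mean of 13 B cell, 8 T cell, 14 macrophage and 3 tumor line genes (horizontal axes), with 1 point per nodule, colored by group. The class II mean runs from 2.58 to 3.34 in D2.A1 nodules and from 3.46 to 4.27 in D2.OR nodules, and the B cell mean runs from 1.90 to 2.11 in D2.A1 nodules and from 2.79 to 4.81 in D2.OR nodules.

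Within D2.A1, H2-Ab1 spread from 4.43 to 6.68 and H2-Aa from 1.73 to 3.26 over the 10 nodules. The macrophage mean was 3.46, 3.46 and 3.14 in D2.A1 2D spindle nodules, 3.65, 3.48 and 3.48 in D2.A1 2D epithelial nodules, 3.08 and 3.17 in D2.A1 3D spindle nodules and 3.45 in both D2.A1 3D epithelial nodules. It was thus highest in 2D epithelial nodules, whereas H2-Aa and H2-Ab1 were highest in 3D epithelial nodules, and its part was not tested. As a description over 15 nodules, with each value taken as its deviation from its group mean, H2-Ab1 correlated with H2-Aa at r = 0.86, with H2-Eb1 at 0.83 and with the partner chain gene H2-Ea at 0.86. H2-Oa correlated with H2-DMa at 0.69 and with H2-Ob at 0.64, and Ciita with H2-Eb1 at 0.73 but with H2-DMa at -0.14. H2-DMb1 had no such correlation with another of the 9 above 0.13. The 15 points share their arrays and 6 groups of 2 or 3 nodules, and nodules of a group may share a mouse.

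The genes most like the mean of H2-Aa, H2-Ab1 and H2-Eb1 over the 15 nodules, by Pearson's r across both lines as a description, were H2-Ea (0.944), Ddx24 (0.928), Mdm4 (0.914), Xist (0.906), Naaa (0.906), Tmem176a (0.904), Herpud1 (0.898), 5031439G07Rik (0.896), Cd24a (0.895) and Ptk2b (0.895). Deviations from the group means gave lower values, from 0.55 for Mdm4 to 0.89 for Naaa. For Ciita the leading genes were Nr3c1 (0.947), Xist (0.939), Ltb (0.923), Pou2af1 (0.914) and Cst7 (0.914). For H2-Ob they were Nudt17 (0.965), Igkj1 (0.895), Zbtb37 (0.878), Rel (0.869) and Meox1 (0.864), a set that shares no gene with the other sets named here. The r over all 15 nodules includes the difference between the lines.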

How the data were processed

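Total RNA of the 15 microdissected nodules was extracted with an FFPE kit and hybridized to 1 Affymetrix Mouse Gene 2.0 ST array per nodule. The authors normalized the arrays with Robust Multi-array Average, and the deposited table holds log2 values for 41345 transcript clusters. The submitters' processing notes name Affymetrix Expression Console and Transcriptome Analysis Console, with no version given in the sources used here. A log2 base follows from that method, as the table does not state it. The normalization compresses differences between weak signals, and no detection calls were used. By the platform annotation 23521 clusters name 1 gene, 1820 several and 16004 none. Only clusters that name 1 gene were used, and where a gene had several, the one with the highest mean over the 15 arrays, which left 22180 genes. Cd74, whose cluster names a second symbol, was not analysed here. No 2 arrays held identical values.

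The 6 groups come from the sample titles. All comparisons of group means used limma 3.58.1 under R 4.3.3 (lmFit and eBayes, 9 residual and 3.20 prior degrees of freedom), and Benjamini-Hochberg adjusted p-values, taken over 22180 genes in each comparison, were called under 0.05. Comparisons over several groups average the group means. The number of arrays limits the precision, and a group of 2 nodules is assumed to vary like the others. The fit was tested on simulated data. Figures were drawn with matplotlib 3.10.9. All 9 genes are reported in every comparison, other genes by fixed lists (those past the threshold with the largest differences, and a few named in any case) and by the highest Pearson's r. The members and the lists were chosen with earlier results of these data known. The alternatives were averaged clusters, only genes at or above the median gene, quantile normalization, arrays centred on their medians, limma's trended and robust prior, array weights, the replicate number as a block, only the nodules compared, the one-way test that the methods imply, and each array left out in turn. Splits by morphology or culture, and the fit without the 3 D2.OR nodules low in Kcnma1, Rhox5 and Lxn, were added after seeing the data.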

Additional observations from a re-analysis of the deposited data

Results flagged for a closer look

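Of 27 sets of 4 to 6 nodules examined for a value far from the others, 1 held such a value, and chance alone gives about 1 in 20. H2-Ob had 2.48 in D2.A1 2D spindle nodule 3, and its gap to the nearest of the 6 D2.A1 2D nodules was 0.66 of their whole range. That nodule also had the highest H2-DMb1 value of the D2.A1 nodules (2.06), a low H2-Eb1 value (3.77) and the lowest H2-Ea value (2.54).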

How the results depend on the processing

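Of 2177 differences of single genes recomputed under the alternatives, 1918 kept their direction and their side of the threshold, 163 lost the threshold, 44 gained it, 52 that had not passed changed sign or moved and none reversed. The count of 8 genes lower in D2.A1 than in D2.OR nodules was 5 with the one-way test and 6 to 8 with a nodule left out. Between D2.A1 2D and D2.OR 2D nodules the count of 5 became 3 with the replicate block, 2 with the one-way test, 3 with epithelial D2.A1 nodules only and 2 to 8 with a nodule left out. Between D2.A1 3D and D2.OR 3D nodules the count of 2 became 0 with arrays centred on their medians, the replicate block, only the nodules compared, the one-way test or epithelial D2.A1 nodules only, 6 with array weights (0.325 for D2.OR 3D nodule 2, 3.11 for D2.OR 3D nodule 1) and 0 to 5 with a nodule left out. Between D2.A1 2D spindle and D2.OR 2D nodules the count of 6 became 2 with only the nodules compared, 0 with the one-way test and 3 to 7 with a nodule left out. Between D2.A1 3D spindle and D2.OR 3D nodules the count of 2 became 4 with quantile normalization, 6 with array weights, 1 with the replicate block, 0 with only the nodules compared, 0 with the one-way test and 0 to 6 with a nodule left out. Between D2.OR 3D and D2.OR 2D nodules the count of 1 became 0 with arrays centred on their medians, the replicate block, only the nodules compared or the one-way test, and 0 to 2 with a nodule left out. The priming effect between the lines had 0 to 2. In the one-way test 2 to 3 genes without any spread had no p in 3 of the comparisons, none of them among the 9 genes. Calls over all genes also rose with array weights and without D2.OR 3D nodule 2 in 2 comparisons with D2.OR 3D. These were the comparisons of D2.A1 3D and of D2.A1 3D spindle nodules. With array weights 952 of 22180 genes passed in either direction for D2.A1 3D, against 99 without weights. For D2.A1 3D spindle 634 passed with array weights, against 61. Fits without a nodule of D2.OR 2D, D2.A1 3D spindle or D2.A1 3D epithelial leave 1 nodule in that group. The spread of that group then does not enter the fit, so calls in those fits are less certain. Fits of only the nodules compared have fewer residual degrees of freedom, and the cause of the other changes was not tested. The other counts stayed at 0 or within 1.5 times.

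Whether the replicate numbers pair the nodules could not be decided. The deviations of nodules with the same number in other groups correlated at -0.02 on average (31 pairs, -0.45 to 0.23). Those with different numbers correlated at 0.01 on average (62 pairs, -0.29 to 0.4). In groups of so few nodules the deviations depend on each other, so these values neither show nor exclude pairing. The replicate block changed no other count by more than 1.5 times. H2-DMb1 fell below the filter at the median gene and was not measured there. Signals near the array median limit H2-DMb1, H2-Ob and, in D2.A1 nodules, H2-DMb2 and H2-Oa, whose differences can be understated.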
